A study of Mus musculus with 72 samples.

Results

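The genes described here are 44 genes of mitochondrial fuel use in mouse muscle and brain, 17 of the citric acid cycle and 27 of fatty acid oxidation. They were chosen by name, as rows of the expression tables that carry their symbols. All 44 were among the 13543 genes of the muscle table and all passed the filter on low values, and 42 were among the 15431 genes of the brain table, where Sdhd and Cpt1b were not analysed here and all 42 passed.

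RNA was sequenced from muscle and brain of mice heterozygous for a disrupted Klotho allele (KlHET, strain B6;129S5-Kl tm1Lex/Mmucd) and of wild-type (WT) mice, with and without neuromuscular electrical stimulation (NMES), in which a current through the skin makes the muscle contract. Groups, 4 in number, were compared in each tissue, with 12 KlHET NMES, 12 KlHET Control, 6 WT NMES and 6 WT Control libraries, each from a separate mouse, and the same mice gave both tissues. NMES mice received 9 mA through a probe at the piriformis, along the sciatic nerve of both hind legs, in 5 sessions, 1 every other day. All groups were under isoflurane on those days, control mice for 15 min and with no current. All mice were 2 months old and tissue was taken 24 h after the last session. The muscle sample was the tibialis anterior with the extensor digitorum longus, and the brain sample is prefrontal cortex by the methods of the study, while its label says brain. By Xist and Y-linked transcripts every group mixed females and males. KlHET mice still carry 1 intact Klotho allele. The KlHET and WT animals have identifiers of different series, and the labels do not say what the series stand for. Whatever differs between the series cannot be told apart from genotype.

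The citric acid cycle burns acetyl-CoA in the mitochondrial matrix and hands its electrons to the respiratory chain. Fatty acid oxidation supplies that acetyl-CoA from fat: fatty acids enter the cell through carriers such as CD36, are activated by acyl-CoA synthetases, cross the mitochondrial membranes on carnitine, and are shortened in repeated rounds by dehydrogenases, hydratases and thiolases. Slow and oxidative muscle fibres are rich in both pathways, whereas the tibialis anterior and its neighbour consist mostly of fast fibres. Neurons use little fat as fuel, and astrocytes hold most of the fatty acid oxidation of the brain.

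Muscle libraries held 14836628 to 24452766 reads and brain libraries 16966170 to 27989779. Levels are given as CPM, read counts scaled to the same library total, after TMM scaling, a correction for library composition, and fold changes are log2 differences of CPM + 0.5. A gene passed the test where its adjusted p was under 0.05 in limma, with Benjamini-Hochberg adjustment over all 13505 muscle or 15400 brain genes tested. Muscle fibre markers summed to 66866 to 125556 CPM in muscle and 14.0 to 39.0 CPM in brain, whereas neuron markers summed to 1.84 to 19.3 CPM in muscle and 5674 to 10486 CPM in brain, as the tissue labels say. Klotho itself was at 1.11 to 29.1 CPM in KlHET and 1.33 to 7.39 CPM in WT brain libraries, overlapping ranges that gave no check of the genotype labels, and its muscle level was not analysed here. A few libraries stood apart. In KlHET NMES muscle replicate 9, transcripts of the mitochondrial genome took 6.39% of the reads, against 18.6% to 33.6% in the other 35 muscle libraries, and its TMM factor of 1.23 was the highest. WT Control muscle replicate 3 had the next lowest share, 18.6%, and WT Control brain replicate 1 the lowest of the brain libraries, 1.67%. KlHET NMES muscle replicate 7 had the highest sum of muscle fibre markers, 125556 CPM against 66866 to 96968 CPM in the other 35. It also had the highest sum of fast fibre markers (141309 CPM) and the highest mean level of each pathway. KlHET Control brain replicate 7 had the lowest neuron marker sum, 5674 CPM against 7449 to 10486 CPM in the other 35, and the highest sums of oligodendrocyte markers (8589 CPM) and choroid plexus markers (1838 CPM). Choroid plexus markers summed to 5.08 to 969 CPM in KlHET NMES and 16.1 to 1838 CPM in KlHET Control brains, against 11.8 to 140.1 CPM in WT NMES and 12.8 to 97.2 CPM in WT Control brains.

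Together the members took 1.14% to 2.03% of the reads of a muscle library and 0.423% to 0.512% of those of a brain library. In muscle the highest share belonged to KlHET NMES replicate 9. Of the 42 genes measured in both tissues, 39 had the higher median in muscle and 3, namely Cpt1a, Cpt1c and Acsl6, in brain. For 38 of the 42 the ranges over the 36 muscle and the 36 brain libraries did not overlap. The same counts were not made over all genes, so they are not shown to be particular to the members. Since the tables were scaled separately, the ratios of muscle to brain are descriptions without a test. The 16 citric acid cycle genes had muscle medians 1.48 to 4.55 times those of brain, with a middle value of 2.96. The fatty acid oxidation genes spanned ratios of 0.0184 to 1080, with a middle value of 7.59. The upper extreme was Cd36, the fatty acid translocase, at a median of 495 CPM in muscle and 0.461 CPM in brain, where its libraries ran from 0.0529 to 1.70 CPM.

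Isoforms of 1 enzyme differed in the tissue where they were high. Per kb of annotated exon, Cpt1c, the neuronal carnitine palmitoyltransferase 1 isoform, had a median level of 0.326 CPM in muscle and 17.7 CPM in brain. Cpt1a, the isoform best known from liver, was at 1.72 CPM per kb in muscle and 4.24 in brain. Cpt1b, the muscle isoform that carries long-chain acyl groups towards the matrix, was at 3.53 CPM per kb in muscle. It shares its strand and part of its span with the annotated gene Gm44502, and how reads in shared exons were counted is not stated. Among the acyl-CoA synthetases, Acsl1 stood above Acsl6 in muscle (26.2 and 2.63 CPM per kb) and below it in brain (5.79 and 17.9 CPM per kb).

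Succinyl-CoA synthetase pairs a shared subunit, Suclg1, with either the ATP-forming Sucla2 or the GTP-forming Suclg2. Sucla2 was at 153 CPM per kb in muscle and 38.7 in brain, Suclg1 at 67.4 and 22.4, and Suclg2 at 3.28 and 1.37, so the order of the subunits was the same in both tissues. The 3 subunits of NAD-dependent isocitrate dehydrogenase lay close together, Idh3b at 184, Idh3a at 143 and Idh3g at 133 CPM per kb in muscle. Succinate dehydrogenase has 4 subunits. Of these, Sdhb, Sdha and Sdhc were at 244, 218 and 91.6 CPM per kb in muscle, whereas Sdhd was at 0.474 CPM per kb and rested on 4 to 23 reads per library (median 11), so its comparisons carry little weight.

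**Figure D1:**
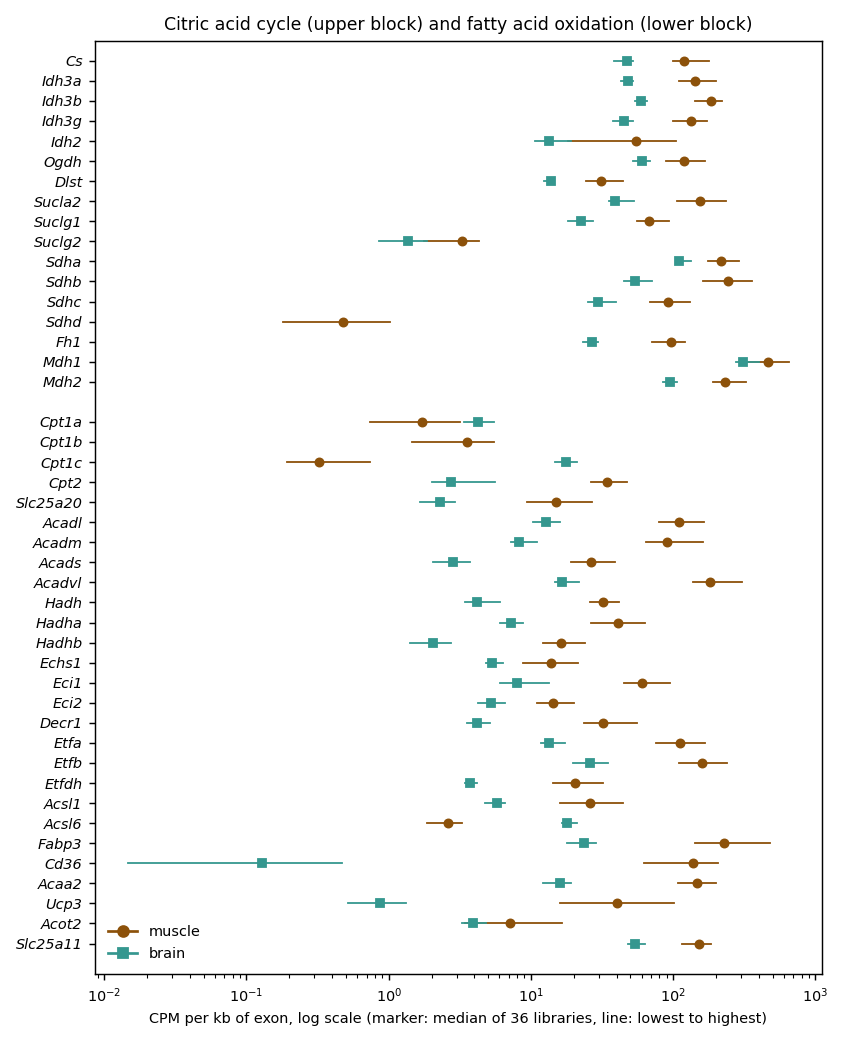
Level of each gene per kb of exon in muscle (circles) and brain (squares), as the median and the lowest to highest of 36 libraries each, on a log axis of CPM per kb. Cpt1a, Cpt1c and Acsl6 lie further right in brain and the other 39 genes measured in both tissues further right in muscle.

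Muscle of NMES mice was first compared with that of control mice in both genotypes together, weighting the KlHET and the WT difference equally. Of the 44 members, 3 were upregulated and 1 was downregulated, where 1.78% of all genes tested passed, 1.27% upwards and 0.511% downwards. Of the upregulated genes, 2 belong to the citric acid cycle: Cs, citrate synthase, which joins acetyl-CoA to oxaloacetate, and Idh3a, the catalytic subunit of isocitrate dehydrogenase. On the fatty acid side, Acsl6, an acyl-CoA synthetase, rose and Cd36 fell. Of the citric acid cycle genes, 13 of 17 had a log2 fold change above 0 (median 0.11), and of the fatty acid oxidation genes 14 of 27 (median 0.00), beside a median of -0.01 over all genes. With total-count scaling 11 of 17 and 7 of 27 were above 0, and the medians were 0.05 and -0.06 beside -0.06 over all genes.

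Idh3a (chr9:54586334-54604661, plus strand, GRCm38) ran from 605 to 1019 CPM in KlHET NMES libraries (median 738), against 558 to 749 CPM in KlHET Control (median 626). In WT mice it ran from 761.7 to 981 CPM with NMES (median 860.1), against 688 to 821 CPM in controls (median 719). The groups overlapped in each genotype. The log2 fold change was 0.23 ± 0.06 (SE) with an adjusted p of 0.0264, and 16 of 18 NMES libraries lay above the mean of their controls.

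Cs (chr10:128337734-128362479, plus strand) ran from 629 to 1029 CPM in KlHET NMES (median 743), against 572 to 712 CPM in KlHET Control (median 642), and from 697 to 818 CPM in WT NMES (median 780.0), against 579 to 757 CPM in WT Control (median 681). Most NMES libraries were high and the ranges still overlapped. The change was 0.20 ± 0.05 (adjusted p = 0.0449, higher in 16 of 18 libraries). Idh3g, the regulatory subunit that sits with Idh3a in the same enzyme, did not pass (0.18 ± 0.05, adjusted p = 0.0666, 17 of 18 libraries), nor did Suclg1 (0.16 ± 0.05, adjusted p = 0.0865).

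Acsl6 (chr11:54303798-54364756, plus strand) was at 23.3 to 30.6 CPM in KlHET NMES (median 28.4), against 18.5 to 28.5 CPM in KlHET Control (median 22.8), and at 24.8 to 32.4 CPM in WT NMES (median 26.9), against 20.4 to 29.2 CPM in WT Control (median 24.3). Its change was 0.21 ± 0.06 (adjusted p = 0.0449, 17 of 18 libraries). An antisense gene, Gm12224, overlaps Acsl6, and whether counting used strand is not stated, so their reads cannot be told apart.

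Cd36 (chr5:17781690-17888801, minus strand) went the other way. It was at 225 to 576 CPM in KlHET NMES (median 486), against 431 to 742 CPM in KlHET Control (median 557), and at 284 to 434 CPM in WT NMES (median 372), against 406 to 729.9 CPM in WT Control (median 469). KlHET NMES replicate 5 was the lowest of the 36 libraries. The change was -0.38 ± 0.10 (adjusted p = 0.0373, lower in 17 of 18 libraries). CD36 is also made by endothelial cells, fat cells and macrophages. Beside its change, all 13 endothelial markers had a log2 fold change below 0 after NMES (median -0.33, 1 past the test), with summed levels of 580.1 to 1145 CPM in KlHET NMES, 637 to 1408 in KlHET Control, 482 to 912 in WT NMES and 688 to 1086 in WT Control. Their part in the Cd36 result was not tested, and in bulk samples fewer cells of a type and less RNA per cell cannot be told apart.

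Calls in this comparison were close to the threshold. With total-count scaling only Cd36 passed (adjusted p = 0.0215), while Idh3a, Cs and Acsl6 had adjusted p of 0.0802, 0.0937 and 0.164, and leaving out single libraries ended the call of Idh3a in 3, Cd36 in 8, Acsl6 in 19 and Cs in 21 of 36 fits.

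The Acsl6 promoter is shown because Acsl6 was the only gene past the test whose promoter, from 250 bases before to 50 bases after the start of transcription, held any of 3 motifs. The motifs were TCAAGGTCA, the element bound by estrogen-related receptors, the direct repeat bound by PPARs, and the NRF1 site, searched on both strands in the RefSeq promoters of GRCm38.p6, in which 39 of 44 members were matched. They stood in 0.466%, 0.0481% and 1.07% of the 27025 promoters in the table. Among members, TCAAGGTCA was found in Acsl6 and Sdhd, the NRF1 site in Etfdh, and the PPAR repeat in 0 of 39. The stretch printed is chr11:54303627-54303695 on the plus strand, and the capitals mark TCAAGGTCA read on the minus strand, which spans the bases from 167 to 159 before the RefSeq start at 54303824. That start lies inside the gene span given above, which is that of GENCODE.
Acsl6: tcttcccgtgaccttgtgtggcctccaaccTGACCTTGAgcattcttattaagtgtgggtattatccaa
A match describes the letters only, and no binding was measured.

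Within each genotype alone no member passed the test. In KlHET mice, where 0.644% of all genes passed (0.481% upwards, 0.163% downwards), 15 of 17 citric acid cycle genes had a log2 fold change above 0 (median 0.16) and so did 23 of 27 fatty acid oxidation genes (median 0.15), beside a median of -0.01 over all genes. At an unadjusted p under 0.05 there were 18 higher and 2 lower members, where 7.3% of all genes were higher and 6.64% lower. The quasi-likelihood test of edgeR called 2 members (Dlst and Suclg1) and 0.807% of all genes, and DESeq2 called 10 members and 1.84% of all genes. In the citric acid cycle the smallest p belonged to Suclg1 (0.22 ± 0.06, adjusted p = 0.0542, 12 of 12 libraries higher), Dlst, the succinyltransferase of the 2-oxoglutarate dehydrogenase complex (0.25 ± 0.07, adjusted p = 0.0603), and Idh3a (0.23 ± 0.07, adjusted p = 0.0846). On the fatty acid side they were Acsl6 (0.25 ± 0.07, adjusted p = 0.0596), Acadvl, the very long-chain acyl-CoA dehydrogenase (0.28 ± 0.08, adjusted p = 0.0782), and Etfb, which passes electrons on from the dehydrogenases (0.23 ± 0.08, adjusted p = 0.147).

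The levels of Suclg1 show the size of these differences. It ran from 279 to 429 CPM in KlHET NMES (median 312), against 255 to 299 CPM in KlHET Control (median 274), with replicate 9 the highest NMES library. Acadvl ran from 408 to 822 CPM in KlHET NMES (median 521), against 368 to 484 CPM in KlHET Control (median 429), and its highest library was again replicate 9. In both genes some NMES libraries lay above every control and the groups overlapped. Without KlHET NMES replicate 8, the lowest library of its group in the mean level of each pathway, 6 members passed. Without replicate 9, 1 member passed, Idh3g with an adjusted p of 0.0267.

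Adipocyte markers are given beside these values. Of 17 tested, 15 had a log2 fold change above 0 in KlHET mice (median 0.39) and 0 passed, and 10 were above 0 in WT mice (median 0.05). Their average log2 level, after subtracting each gene's average over libraries, ran from -0.53 to 1.33 in KlHET NMES (median 0.15), against -0.49 to 0.41 in KlHET Control (median -0.01). Markers that define fat cells were low in level, with means of 8.49 CPM in KlHET NMES against 4.00 CPM in KlHET Control for Adipoq, 5.31 against 2.48 CPM for Plin1 and 63.3 against 25.3 CPM for Cfd. With scores of the adipocyte and slow fibre markers as covariates, 7 members and 2.1% of all genes passed in KlHET mice.

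In WT mice 0.0148% of all genes passed. Of the citric acid cycle genes 11 of 17 had a log2 fold change above 0 (median 0.03, but -0.06 with total-count scaling), and of the fatty acid oxidation genes 5 of 27 (median -0.10). At an unadjusted p under 0.05 there were 2 higher and 2 lower members, where 5.03% of all genes were higher and 3.86% lower, and neither edgeR's quasi-likelihood test nor DESeq2 called any member. In the citric acid cycle the smallest p belonged to Idh3a (0.23 ± 0.09, adjusted p = 0.459), Cs (0.20 ± 0.09, adjusted p = 0.527) and Idh3g (0.16 ± 0.09, adjusted p = 0.607), each higher in 6 of 6 NMES libraries. On the fatty acid side Cd36 had -0.44 ± 0.16 (adjusted p = 0.42) and Decr1, the 2,4-dienoyl-CoA reductase needed for unsaturated fatty acids, had -0.30 ± 0.14 (adjusted p = 0.532), both lower in 6 of 6 libraries. Acsl6 had 0.17 ± 0.09 (adjusted p = 0.598). For Decr1 the WT ranges did not overlap, by a narrow gap, and the share of all genes without overlap was not counted.

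**Figure D2:**
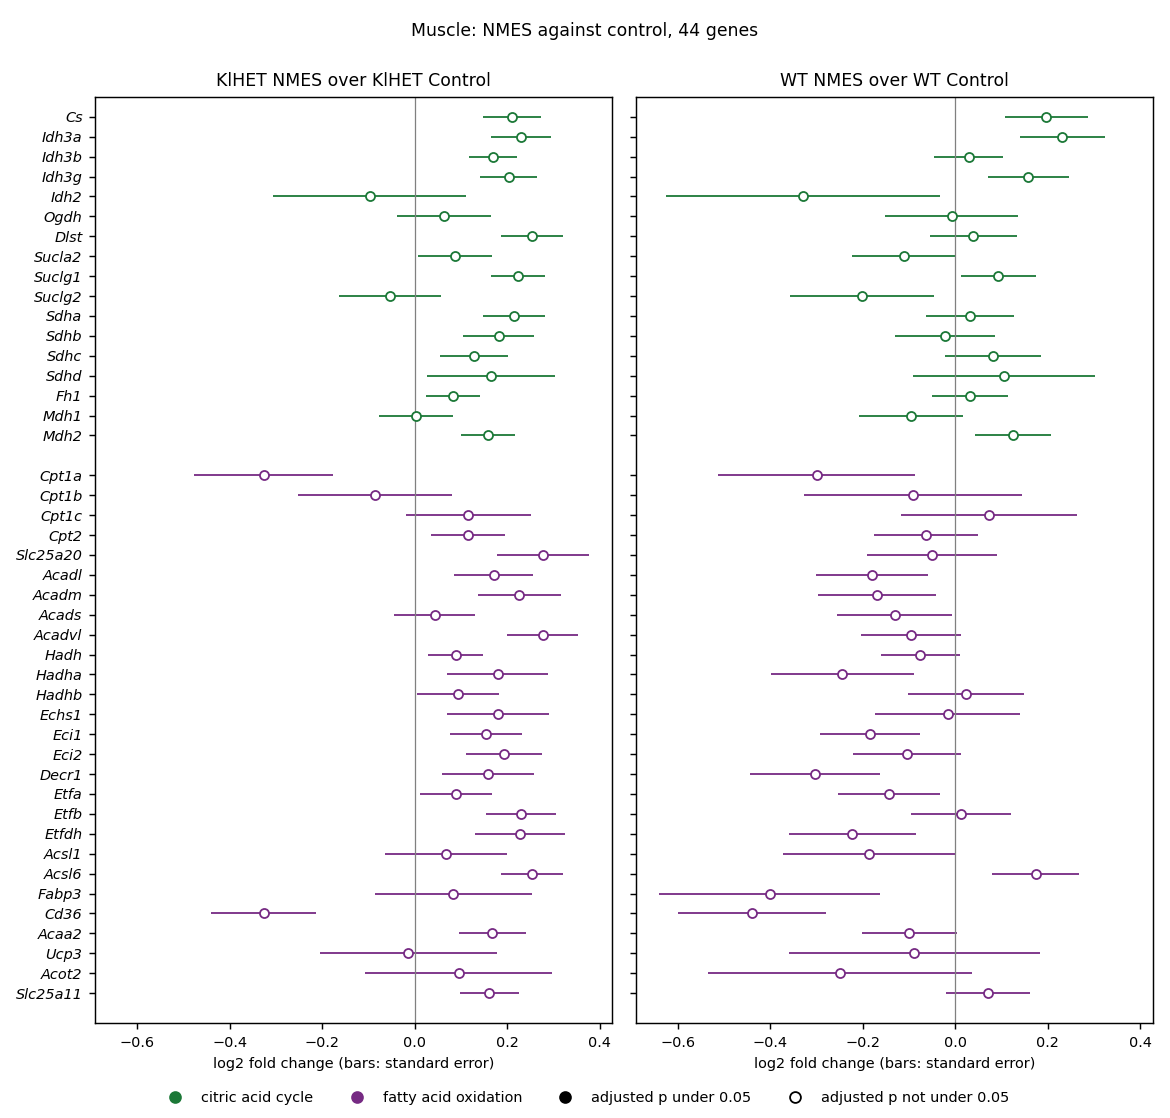
Log2 fold change of NMES over control in muscle, with its standard error, for each gene in KlHET mice (left) and WT mice (right), citric acid cycle above and fatty acid oxidation below. Filled points would mark an adjusted p under 0.05 and there are none. In KlHET mice 38 of 44 points lie above 0, and in WT mice 16 of 44.

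The difference between the genotypes in their response was tested as the interaction of NMES and genotype. No gene of the table passed this test (0% of 13505), and edgeR's quasi-likelihood test and DESeq2 called 0 members. A positive value means a larger NMES difference in KlHET than in WT. Values were above 0 for 26 of 27 fatty acid oxidation genes (median 0.23) and 16 of 17 citric acid cycle genes (median 0.10), beside a median of 0.00 over all genes. With total-count scaling they were above 0 for 27 of 27 and 17 of 17, where the median of all genes was 0.06. At an unadjusted p under 0.05 there were 9 members, all of fatty acid oxidation and above 0, where 1.56% of all genes were above 0 and under that p. Of 17 adipocyte markers 16 had a value above 0 (median 0.36) and 0 passed. With the marker scores as covariates no gene passed either. Each of the 44 values uses the same 4 groups, so the counts are 1 pattern over the same libraries. The mean centred log2 level of fatty acid oxidation was highest in KlHET NMES replicates 7 (0.41) and 9 (0.39) and WT Control replicate 1 (0.26). Counts of signs without these libraries are not given here, so how far the pattern rests on them is not shown.

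The fatty acid oxidation genes with the smallest p encode enzymes of the mitochondrial matrix and inner membrane. Acadvl had 0.37 ± 0.13, Decr1 0.46 ± 0.17 and Etfdh, which hands electrons from fatty acid oxidation to ubiquinone, 0.45 ± 0.17, each with an adjusted p of 1. Acadm, the medium-chain dehydrogenase, had 0.40 ± 0.16 and Eci1, an enoyl-CoA isomerase, 0.34 ± 0.13. In the citric acid cycle the smallest p belonged to Dlst (0.22 ± 0.12), Sdha, the flavoprotein subunit of succinate dehydrogenase (0.18 ± 0.12), and Idh3b (0.14 ± 0.09), again with an adjusted p of 1.

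Decr1 was at 90.9 to 216 CPM in KlHET NMES (median 129), against 95.9 to 145 CPM in KlHET Control (median 119), and at 107 to 125.6 CPM in WT NMES (median 115), against 125.9 to 169 CPM in WT Control (median 143). The KlHET groups overlapped, and the WT groups were apart only by the gap from 125.6 to 125.9 CPM. Etfdh was at 107 to 243 CPM in KlHET NMES (median 181), against 121 to 171 CPM in KlHET Control (median 149.8), and at 113 to 170.0 CPM in WT NMES (median 149.7), against 153 to 217 CPM in WT Control (median 161). In KlHET NMES, Decr1 was lowest in replicate 8 and Etfdh in replicate 5, and both were highest in replicate 9.

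**Figure D3:**
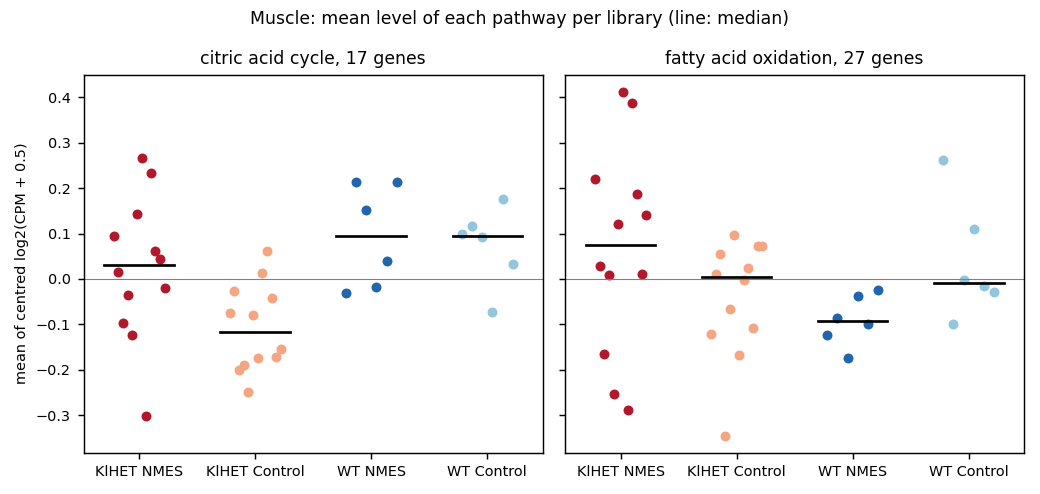
Pathway level of every muscle library, the average over its genes of log2(CPM + 0.5) after subtracting each gene's average over libraries, with the group median as a line. The citric acid cycle medians are 0.03 in KlHET NMES, -0.12 in KlHET Control, 0.10 in WT NMES and 0.10 in WT Control, and the fatty acid oxidation medians are 0.07, 0.00, -0.09 and -0.01 in the same order of groups.

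KlHET muscle was next compared with WT muscle, in control mice and in NMES mice. In control mice 7 members were downregulated and none was upregulated, where 6% of all genes passed, 2.59% upwards and 3.41% downwards. Of these, 5 were citric acid cycle genes, Mdh2, Sdhb, Idh3b, Suclg1 and Mdh1, and 2 were fatty acid oxidation genes, Etfb and Acadvl. Log2 fold changes were below 0 for 14 of 17 citric acid cycle genes (median -0.18) and 20 of 27 fatty acid oxidation genes (median -0.15), beside a median of 0.02 over all genes. Total-count scaling gave medians of -0.11 and -0.08 beside 0.08 over all genes.

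Mdh2, mitochondrial malate dehydrogenase (chr5:135778480-135790398, plus strand), was at 676 to 838 CPM in KlHET Control (median 733), against 821 to 1005 CPM in WT Control (median 965). The ranges touched only where KlHET replicate 9 stood above WT replicate 1. The change was -0.34 ± 0.07 (adjusted p = 0.00694, lower in 12 of 12 KlHET libraries). Its cytosolic counterpart Mdh1 (chr11:21556787-21572367, minus strand), of the malate-aspartate shuttle, was at 938 to 1327 CPM in KlHET Control (median 1109), against 1268 to 1663 CPM in WT Control (median 1347), a change of -0.33 ± 0.10 (adjusted p = 0.0375).

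Sdhb, the iron-sulphur subunit of succinate dehydrogenase (chr4:140961203-140979193, plus strand), was at 360.5 to 583 CPM in KlHET Control (median 489), against 603 to 803 CPM in WT Control (median 625.5). The groups did not overlap, and WT replicate 3 was the highest. The change was -0.44 ± 0.09 (adjusted p = 0.0071). The other subunits had changes of -0.27 ± 0.09 for the membrane anchor Sdhc (adjusted p = 0.0588) and -0.17 ± 0.08 for Sdha, which did not pass.

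Idh3b, a regulatory subunit of isocitrate dehydrogenase (chr2:130279309-130284547, minus strand), was at 487 to 626 CPM in KlHET Control (median 574), against 649 to 713 CPM in WT Control (median 696), a change of -0.29 ± 0.06 (adjusted p = 0.00868). Suclg1 (chr6:73248382-73276911, plus strand) was at 255 to 299 CPM in KlHET Control (median 274), against 312 to 377 CPM in WT Control (median 338), a change of -0.31 ± 0.07 (adjusted p = 0.0103). Neither gene overlapped between the groups. Fh1, fumarase, did not overlap either (289 to 331 CPM in KlHET Control, against 332 to 379.7 CPM in WT Control) and missed the threshold (-0.22 ± 0.07, adjusted p = 0.0534). The share of all genes without overlap between these groups was not counted. Lack of overlap in this comparison is thus not shown to be particular to the members.

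Etfb (chr7:43444083-43457800, plus strand) was at 146 to 185 CPM in KlHET Control (median 164), against 195 to 256 CPM in WT Control (median 210.4), without overlap, a change of -0.39 ± 0.09 (adjusted p = 0.0123). Acadvl (chr11:70010183-70015411, minus strand) was at 368 to 484 CPM in KlHET Control (median 429), against 475 to 566 CPM in WT Control (median 543), a change of -0.31 ± 0.09 (adjusted p = 0.0409). Next in order in the fatty acid oxidation list was Slc25a11 (-0.25 ± 0.08, adjusted p = 0.0521). It encodes the 2-oxoglutarate and malate carrier, which is not an enzyme of fatty acid oxidation, and is counted with that list throughout.

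Cpt1a and Ucp3 of fatty acid oxidation lay on the other side. Cpt1a had a log2 fold change of 0.56 ± 0.18 (adjusted p = 0.0594) and Ucp3, the mitochondrial uncoupling protein of muscle, 0.64 ± 0.23 (adjusted p = 0.09). With total-count scaling 4 members passed, Mdh2 (adjusted p = 0.0223) and Sdhb (0.0362) downwards and Cpt1a (0.0296) and Ucp3 (0.0459) upwards. Mdh2, Sdhb and Idh3b passed in all 36 fits that left out 1 library, whereas Etfb and Suclg1 lost the call without WT Control replicate 3 (adjusted p = 0.0664 and 0.0541). Mdh1 lost it in 10 fits and Acadvl in 11, with the highest adjusted p, 0.162 and 0.129, also without that library.

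In NMES mice 1 member was downregulated and 3 were upregulated, where 19.1% of all genes passed, 9.26% upwards and 9.87% downwards. The 4 of 44 members were thus a smaller share than that of all genes. Mdh2 was again lower, and the upregulated genes, Hadha, Ucp3 and Cpt1a, belong to fatty acid oxidation. Citric acid cycle genes were above 0 for 6 of 17 (median -0.14) and fatty acid oxidation genes for 21 of 27 (median 0.20), beside a median of 0.02 over all genes. Total-count scaling moved the median of all genes to 0.14, and those of the pathways to 0.00 and 0.33.

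Mdh2 was at 702 to 1078 CPM in KlHET NMES (median 812), against 924 to 1163 CPM in WT NMES (median 1014), a change of -0.30 ± 0.07 (adjusted p = 0.00351, lower in 11 of 12 libraries). Of the KlHET libraries, replicates 6 and 7 reached into the WT range. With total-count scaling its adjusted p was 0.0851. Idh3a (-0.20 ± 0.08, adjusted p = 0.0654) and Suclg1 (-0.18 ± 0.07, adjusted p = 0.0683) came next in the citric acid cycle.

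Hadha, the subunit of the mitochondrial trifunctional protein that carries hydratase and dehydrogenase activity (chr5:30118304-30155162, minus strand), was at 259.6 to 557 CPM in KlHET NMES (median 404), against 231 to 354 CPM in WT NMES (median 297), a change of 0.42 ± 0.13 (adjusted p = 0.0247, higher in 9 of 12 libraries). Hadhb encodes the thiolase subunit of the same protein and starts next to Hadha on the opposite strand. It was at 80.1 to 141 CPM in KlHET NMES (median 107), against 104 to 158 CPM in WT NMES (median 127), a change of -0.26 ± 0.11 that did not pass (adjusted p = 0.0838). In control mice the pair had 0.00 ± 0.13 for Hadha and -0.33 ± 0.11 for Hadhb (adjusted p = 0.0566).

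Ucp3 (chr7:100472990-100486432, plus strand) was at 58.5 to 316 CPM in KlHET NMES (median 143), against 50.3 to 124 CPM in WT NMES (median 96.0), a change of 0.72 ± 0.23 (adjusted p = 0.0296, 11 of 12 libraries). Cpt1a (chr19:3322334-3385733, plus strand) was at 6.38 to 17.2 CPM in KlHET NMES (median 14.1), against 5.66 to 13.3 CPM in WT NMES (median 8.66), a change of 0.53 ± 0.18 (adjusted p = 0.0381, 11 of 12 libraries). In both genes most KlHET libraries stood above the WT median, and replicate 5 was the lowest KlHET library.

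Leaving out single libraries ended the call of Cpt1a in 10 of 36 fits (adjusted p of up to 0.133, without WT NMES replicate 3), of Ucp3 in 3 (0.0542, 0.115 and 0.0529 without WT NMES replicates 2, 3 and 6) and of Hadha in 2 (0.061 and 0.0917 without WT NMES replicates 4 and 5). Mdh2 passed in all 36. With only the compared groups in the fit Mdh2 still passed (adjusted p = 0.0282), whereas Cpt1a, Hadha and Ucp3 did not (0.0633, 0.0637 and 0.0864), where 11.2% of all genes passed. With total-count scaling 10 of 27 fatty acid oxidation genes passed upwards, the 3 above with Acadl, Acadm, Acsl1, Cd36, Eci2, Etfdh and Slc25a20, where 19.5% of all genes passed upwards and 2.27% downwards. The difference of the genotype effects between NMES and control mice is the interaction, in which no member passed.

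**Figure D4:**
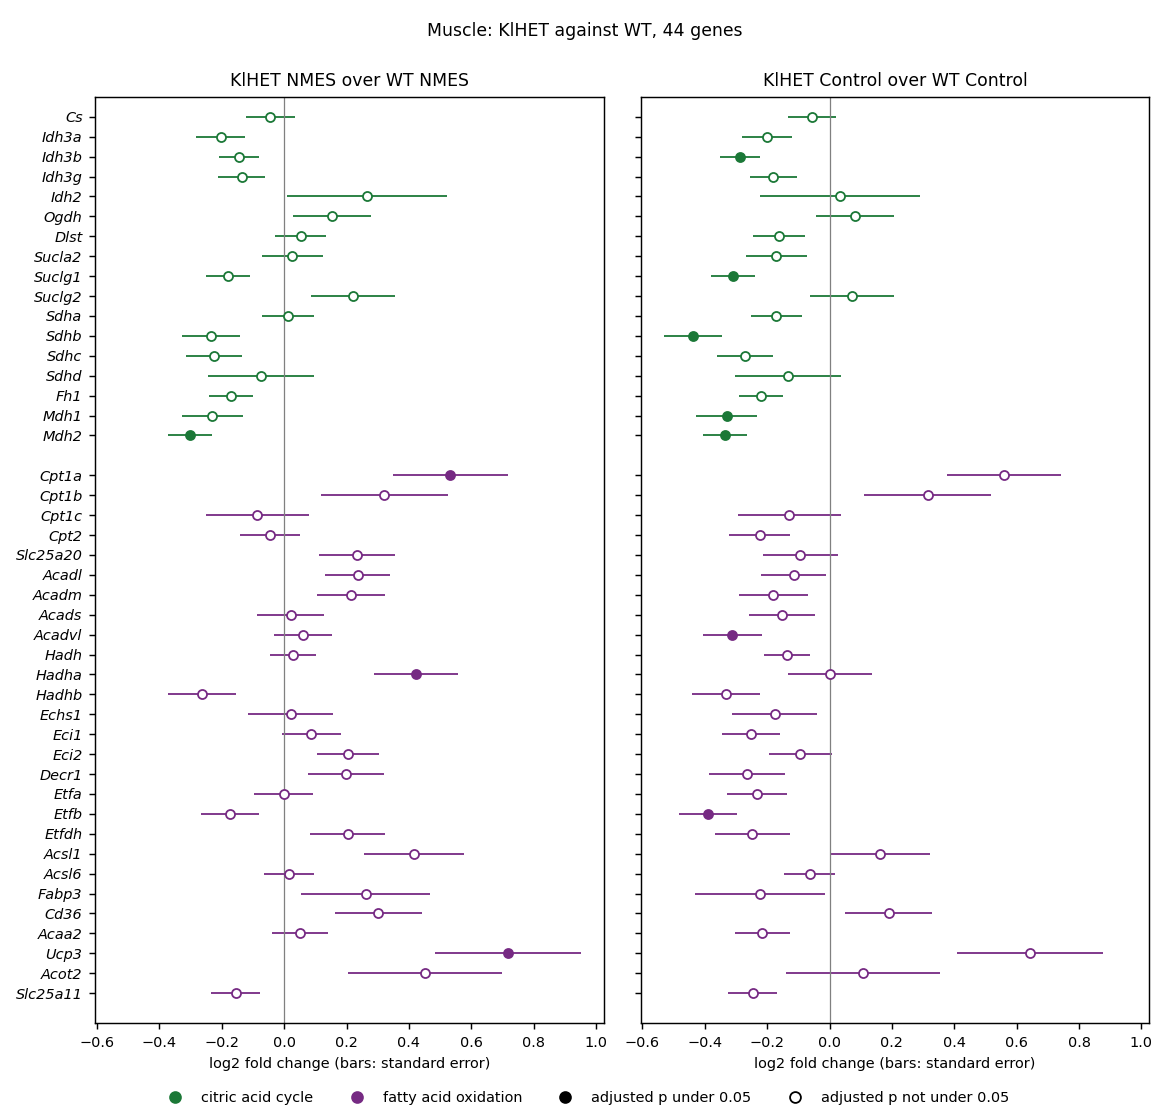
Log2 fold change of KlHET over WT in muscle, with its standard error, for each gene in NMES mice (left) and control mice (right). Filled points have an adjusted p under 0.05. In control mice the 7 filled points lie below 0, and in NMES mice Mdh2 lies below 0 and Cpt1a, Hadha and Ucp3 above it.

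**Figure D5:**
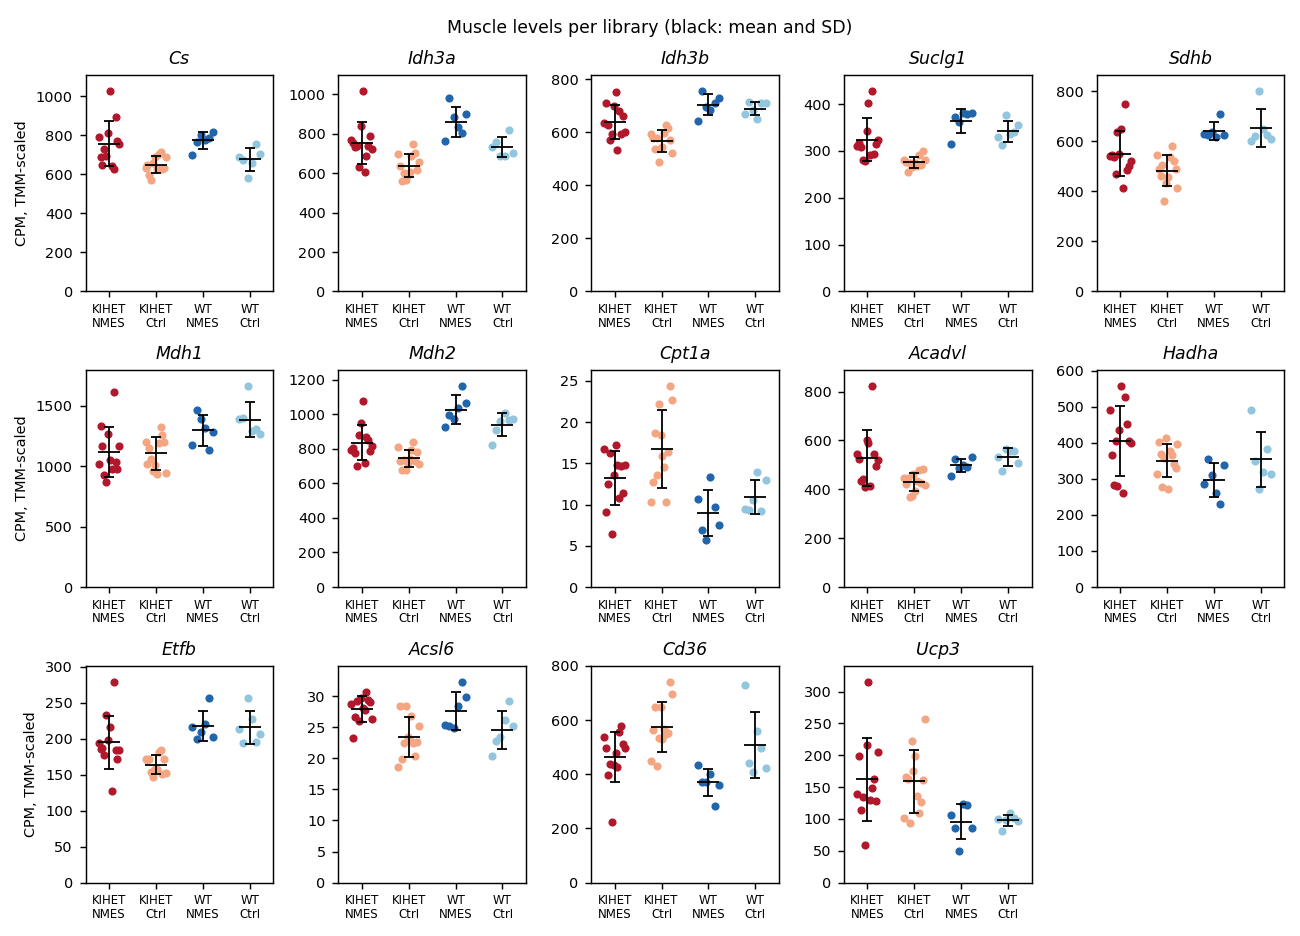
CPM after TMM scaling of the 14 genes past the test in any muscle comparison, 1 point per library, with the mean and SD of each group in black. KlHET Control libraries lie below all WT Control libraries for Sdhb, Idh3b, Suclg1 and Etfb, and the other groups overlap in part. Such separation was not counted over all genes.

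Several of these genes share sequence space with other genes, and whether reads were counted by strand is not stated. Idh3b overlaps Nop56, Mdh1 overlaps Wdpcp, Acadvl overlaps Dvl2 and Hadha overlaps Garem2, each on the opposite strand. Ucp3 overlaps the antisense gene Gm10603, and Etfb overlaps Gm45233 on its own strand.

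Fat cells and oxidative fibres carry transcripts of both pathways. Of 17 adipocyte markers tested, 3 were higher in KlHET NMES than in WT NMES and 14 had a value above 0 (median 0.50), and none passed between the control groups. Their summed level, most of it from Car3, Lpl, Plin4 and Fabp4, was 1744 to 2752 CPM in KlHET NMES, 1693 to 2560 in KlHET Control, 1579 to 2613 in WT NMES and 1846 to 2814 in WT Control. Of 11 fast glycolytic fibre markers 4 were lower in KlHET than in WT in either comparison, and of 13 slow and oxidative fibre markers 1 was higher in KlHET than in WT among NMES mice. Of 12 macrophage markers 3 were higher in that comparison, and of 13 endothelial markers 1 was higher in each genotype comparison. Beside these counts, 9.26% of all genes were higher and 9.87% lower in KlHET than in WT among NMES mice. Among control mice the shares were 2.59% and 3.41%. A shift of a cell type was not tested. Slow fibre markers summed to 784 to 4255 CPM in KlHET NMES, 1058 to 5125 in KlHET Control, 817 to 1740 in WT NMES and 1167 to 2570 in WT Control. With scores of the adipocyte and slow fibre markers as covariates, all 7 genes called between the control groups and all 4 called between the NMES groups still passed, Mdh2 with changes of -0.31 and -0.24. Fast fibre, macrophage and endothelial markers were not among these covariates.

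Further genes around the 2 pathways were counted from lists of 20 citric acid cycle neighbours, 31 tested genes of fat transport and breakdown, and 20 PPAR targets and regulators. In the NMES comparison that averages the 2 genotypes, Got2, the mitochondrial aspartate aminotransferase of the malate-aspartate shuttle, was upregulated (0.26 ± 0.05, adjusted p = 0.00779). The orphan receptor gene Esrrg was downregulated there (-0.25 ± 0.06, adjusted p = 0.0241). Within KlHET mice Pnpla2, the lipase that opens triglyceride breakdown, was upregulated (0.36 ± 0.09, adjusted p = 0.0471). No other gene of these lists passed in the NMES comparisons.

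Between genotypes in control mice, 1 of the 20 neighbours was higher and 2 were lower in KlHET, 1 of the 31 fat genes was higher and 3 were lower, and 1 of the 20 PPAR genes was higher. In NMES mice the counts were 3 higher and 2 lower, 6 higher and 1 lower, and 5 higher. Acot1 stands in both the fat and the PPAR list and is counted in each. Of all genes tested, 2.59% were higher and 3.41% lower in control mice, and 9.26% and 9.87% in NMES mice. With lists this short the counts are descriptions only. Assembly factors of succinate dehydrogenase were among the lower genes, Sdhaf4 in both comparisons (-0.48 ± 0.14 in controls, -0.41 ± 0.14 in NMES mice). Sdhaf2 passed in controls (-0.24 ± 0.07, adjusted p = 0.0364) and Sdhaf1 in NMES mice (-0.325 ± 0.0923, adjusted p = 0.0128). Acot13, an acyl-CoA thioesterase, was lower in both (-0.41 ± 0.08 in controls, -0.50 ± 0.08 in NMES mice). Angptl4, a PPAR target that inhibits lipoprotein lipase, was higher in both, at 1.14 to 11.3 CPM in KlHET NMES against 0.520 to 2.28 CPM in WT NMES (1.51 ± 0.41, adjusted p = 0.00971), and 1.33 ± 0.41 in controls (adjusted p = 0.0456). In NMES mice Acot1 (0.99 ± 0.25), Lipe (0.50 ± 0.13), Acacb (0.53 ± 0.14) and Slc27a1 (0.49 ± 0.13) were higher as well.

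Nnt, the transhydrogenase that draws on the proton gradient to make NADPH, had the largest fold change of the citric acid cycle neighbours that passed. In muscle it was at 14.1 to 116 CPM in KlHET NMES, against 15.4 to 26.4 CPM in WT NMES (1.32 ± 0.30, adjusted p = 0.00287), and at 31.5 to 99.0 CPM in KlHET Control, against 15.6 to 28.4 CPM in WT Control (1.21 ± 0.30, adjusted p = 0.0151). In brain it was at 20.8 to 36.1 CPM in KlHET NMES, against 18.8 to 20.9 CPM in WT NMES (0.52 ± 0.09, adjusted p = 0.00884). Part of Nnt is deleted in the C57BL/6J substrain and intact in 129 strains. Strain background and the Klotho allele cannot be told apart here.

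In brain no member passed in any of the 6 comparisons, by limma, by edgeR's quasi-likelihood test or by DESeq2, or in any fit that left out 1 library. The shares of all genes that passed were 0% in the 3 NMES comparisons and the interaction, 0.0714% between genotypes in control mice (0.0519% upwards, 0.0195% downwards) and 0.0974% in NMES mice (0.0584% upwards, 0.039% downwards). At an unadjusted p under 0.05 there were 0 members for NMES in both genotypes, 1 in WT, 1 in KlHET, 1 for the interaction, 5 between genotypes in control mice and 0 in NMES mice. The shares of all genes under that p were 1.99%, 2.73%, 2.04%, 2.95%, 10.4% and 4.27% in the same order of comparisons. Member fold changes of NMES in both genotypes lay between -0.10 and 0.15.

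The brain values with the smallest p were between genotypes in control mice. There the share of members under an unadjusted p of 0.05 was near that of all genes, and none passed. The values are therefore not shown to be a result about the members. They belonged to 3 genes that were lower in KlHET muscle too, in mice that gave both tissues. Sdhb was at 102 to 139.6 CPM in KlHET Control (median 117), against 119.9 to 158 CPM in WT Control (median 126), a difference of -0.16 ± 0.06 (adjusted p = 0.366). Mdh1 was at 709 to 854 CPM in KlHET Control (median 787), against 775 to 1026 CPM in WT Control (median 851), with -0.15 ± 0.05 (adjusted p = 0.366), and Mdh2 had -0.12 ± 0.04 (adjusted p = 0.382). The WT Control range of Sdhb and Mdh1 was topped by replicate 1, the library with the low mitochondrial share. Of the citric acid cycle genes 3 of 16 had a value above 0 (median -0.05, and -0.02 with total-count scaling) and of the fatty acid oxidation genes 14 of 26 (median 0.00). Acot2, a mitochondrial acyl-CoA thioesterase, had the smallest p among them (0.14 ± 0.07, adjusted p = 0.458).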

How the data were processed

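RNA was sequenced from 36 muscle and 36 brain libraries. Per the labels and methods, the authors aligned paired reads to mm10 with Rsubread 2.16.1, annotated genes with org.Mm.eg.db 3.19.1 and deposited CPM per gene and library, made with edgeR 4.0.16 after a filter on low genes. Every deposited CPM value was a whole multiple of the worth of 1 read (tolerance 1e-06), so whole reads were recovered. The authors' strand setting is not stated. Each table also holds a log2 CPM average by the authors, tied to no sample, which was not used.

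CPM was rescaled by TMM (factors 0.855 to 1.23 in muscle and 0.962 to 1.07 in brain), and log2(CPM + 0.5) was fitted with limma 3.58.1 in R 4.3.3 (trend, robust) over 4 group means and all libraries of a tissue, with Benjamini-Hochberg adjustment over all tested genes and a threshold of 0.05. The ± values of fold changes are standard errors. Alternatives were edgeR's quasi-likelihood test and DESeq2 1.42.0 on the recovered reads, total-count scaling, other filters and pseudocounts, covariates, only the compared groups, and each library left out. The labels carry no replicate numbers, so replicates are numbered in accession order. All 12 KlHET Control columns of each table were used, more than the legends of the study count. Figures were drawn with matplotlib 3.10.9. Lengths, overlaps and positions came from GENCODE M21 (GRCm38).

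Genes past the threshold in any comparison were named with values, or the 3 with the smallest p of a pathway where fewer than 3 passed, and up to 4 genes of each other list. The members and lists were chosen with earlier results of these data known.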

Additional observations from a re-analysis of the deposited data

Results flagged for a closer look

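In each group of 6 libraries, the highest and lowest library of the named genes were compared with the rest by Dixon's ratio of the gap to the range (95% critical value 0.625). Of 80 such groups 12 had a library that stood apart, and chance gives about 1 in 20 where groups are independent. These groups reuse the same WT libraries for genes that vary together, and the genes were picked by p. The count therefore cannot be set against that share. In muscle, WT Control replicate 3 was high for Mdh1 (1663.49 CPM, others 1267.63 to 1399.84) and Sdhb (803.161 CPM, others 603.475 to 650.755) and low for Idh3g (275.845 CPM, others 362.187 to 396.959). Its mitochondrial share was the lowest of its group. WT NMES replicate 5 was high for Etfb (256.332 CPM, others 199.279 to 219.961) and Sdhb (711.493 CPM, others 617.108 to 635.818). WT NMES replicate 1 was low for Suclg1 (314.726 CPM, others 362.605 to 380.962).

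In brain all 6 belonged to WT Control replicate 1, the brain library with the lowest mitochondrial share. It was high for Sdhb (157.996 CPM, others 119.904 to 130.822), Sdhc (128.537 CPM, others 92.3939 to 100.886) and Mdh1 (1025.64 CPM, others 774.766 to 861.217). Sucla2 was at 211.057 CPM (others 154.314 to 164.459) and Eci1 at 21.8193 CPM (others 16.6516 to 18.4539), both high as well. Citrate synthase, Cs, was low at 222.95 CPM (others 266.432 to 289.746).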

How the results depend on the processing

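No gene that passed the test changed direction under the alternatives run, and the signs of the pathway medians that changed are given with each comparison. For the genes named, 645 values kept their direction and side of the threshold under the settings other than leaving out a library, 23 moved past the threshold and 12 lost it, and with single libraries left out the numbers were 2542, 33 and 89. For NMES against control in both genotypes 4 members passed, 1 with total-count scaling and 7 after adjusting for adipocyte and slow fibre marker scores, and 0 to 5 when single libraries were left out (0 without WT Control replicate 4 or WT NMES replicate 3, and 1 or 2 in 16 other fits). In KlHET mice 0 passed, 2 with edgeR's quasi-likelihood test, 10 with DESeq2, 3 after adjusting for sex by Xist or Y-linked level, 7 with the marker scores, and 0 to 6 without single libraries (6 without KlHET NMES replicate 8, 3 without KlHET NMES replicate 5 or KlHET Control replicate 9). Between genotypes in control mice 7 passed, 4 with total-count scaling, 13 with DESeq2, 14 with only the compared groups in the fit, 13 after adjusting for sex, 12 with the marker scores, and 3 to 12 without single libraries (3 without WT Control replicate 3, 11 without KlHET NMES replicate 9 or KlHET Control replicate 1, 12 without KlHET NMES replicate 5 or KlHET Control replicate 9). In NMES mice 4 passed, 10 with total-count scaling, 1 with only the compared groups, 7 after adjusting for sex, and 2 to 10 without single libraries (2 without WT NMES replicate 3, 5 or 6, 7 without WT NMES replicate 1, 8 without KlHET NMES replicate 9, 10 without KlHET NMES replicate 5). The cause of these shifts was not tested. No paired analysis was possible because the labels carry no replicate numbers that pair mice of the groups compared. Muscle and brain of the same mice were not compared by a test. Sdhd rested on only 4 to 23 reads per muscle library, and why it was so far below the other succinate dehydrogenase subunits was not tested.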

Other observations

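The spread between mice was wider after NMES than in controls among KlHET muscle libraries. The SD of log2 values was larger in KlHET NMES than in KlHET Control for 17 of 17 citric acid cycle genes and 23 of 27 fatty acid oxidation genes, where it was larger for 74.9% of all genes. Without KlHET NMES replicate 9 the counts were 14 of 17 and 23 of 27, and 70.2% of all genes. The median SD was 0.215 in KlHET NMES and 0.125 in KlHET Control for the citric acid cycle, and 0.328 and 0.185 for fatty acid oxidation. In brain the SD was larger for 9 of 16 and 12 of 26 genes and for 51.2% of all genes. These counts are a description without a test.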
